A study of Homo sapiens with 4 samples.

Results

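The cells described here are those of the SIRT1 knockout library of day 6 that carried transcripts of SIX3 or SIX6, 2 homeobox transcription factor genes of the anterior neural plate. A cell was a member when it held at least 2 unique molecular identifiers (UMIs, each standing for 1 captured transcript) of SIX3 and SIX6 together and no UMI of GBX2. Only cells with at least 4000 UMIs, at least 1000 detected genes and at most 20% of UMIs from mitochondrially encoded genes were considered. Under this rule 198 of 4419 knockout day 6 cells were members, out of 22599 cells in the 4 libraries of the series. The members were chosen by the counts of SIX3, SIX6 and GBX2, so these values are given as a description and support nothing.

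SIX3 and SIX6 act at the front end of the neural plate, where the forebrain and the eyes form. SIX3 is known to hold WNT signalling low in the anterior neural plate and to act in the eye field together with RAX, PAX6 and LHX2, and SIX6 is known for later roles in the retina, the hypothalamus and the pituitary. In the same tissue, OTX2 marks the forebrain and midbrain, GBX2 the anterior hindbrain on the other side of the isthmus, EN1 and PAX2 the midbrain-hindbrain region, and FOXA2 the ventral midline (floor plate) from which midbrain dopaminergic neurons arise.

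The study used H9 (WA09), a human embryonic stem cell line grown on Geltrex in mTeSR1 medium. The labels give 4 groups of 1 library: H9 wild type and H9 with a Sirtuin 1 deletion, both before differentiation (day 0) and on day 6 of differentiation into dopaminergic neurons. SIRT1 is a NAD-dependent protein deacetylase. Cells were detached with TrypLE and captured with a 10x Chromium 3′ kit. The labels do not say whether the knockout cells were 1 clone, and name no agent or dose of the protocol. With 1 library per group there is no replicate of either genotype, so no test was made. Every interval below is a 95% interval for counting error only, and cells of 1 library share their source.

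Past the limits above, the wild type had 5533 cells on day 0 and 5372 on day 6, and the knockout 7275 and 4419. Median depth was 13169 UMIs per cell in the knockout day 6 library and 8590 in the wild-type day 6 library, and 12645 and 8367 in the wild-type and knockout libraries of day 0. Between 5 and 18 cell barcodes were shared by any pair of libraries. SIRT1 stood at 9.95 CPM (counts scaled to the summed UMIs of the cells) in the knockout day 6 library and at 30.2 CPM in the wild type, and at 7.11 and 32.3 CPM at day 0. These are 3′ tags, and no source used here says whether they lie outside the deleted part. The members held 31 SIRT1 UMIs (10.3 CPM) and their depth-matched cells 28 (9.28 CPM).

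In the wild type SIX3 stood at 1.88 CPM on day 0 and 2.14 CPM on day 6, and in the knockout at 0.735 and 9.21 CPM. SIX6 stood at 0.749 and 1.67 CPM in the wild type and at 0.245 and 14.8 CPM in the knockout. Both genes were highest in the knockout day 6 library, and SIX6 had its next level in the wild-type library of that day. At least 1 SIX3 or SIX6 UMI was found in 539 knockout cells (12.2%) and in 118 wild-type cells (2.20%) of day 6. The rule was met by 4.48% of knockout cells (3.89 to 5.13) and by 31 of 5372 wild-type cells, 0.577% (0.392 to 0.818). At day 0, 15 of 7275 knockout cells (0.206%) and 22 of 5533 wild-type cells (0.398%) met it. After each cell was thinned to 4000 UMIs, so that depth was equal, the rule was met by 79 cells of the knockout (1.79%, 1.42 to 2.22) and 15 of the wild type (0.279%, 0.156 to 0.460) at day 6, and by 5 and 13 cells at day 0. If the RNA free in the droplets made up 10% of each cell's UMIs, it alone would put 2 or more UMIs of these genes into 2.10 cells of the knockout day 6 library and 0.0802 cells of the wild type. At the same share it would put at least 1 such UMI into 122.7 knockout cells and 26.96 wild-type cells. These numbers stand beside the 539 and 118 cells in which at least 1 was found.

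The rule cuts a continuous count. The knockout library had 167 cells with exactly 1 SIX3 or SIX6 UMI and no GBX2 UMI, which lie just outside the rule, and 72 members with exactly 2, just inside it. A further 33 members had 3 UMIs, 27 had 4, 21 had 5, and 20 had 10 or more. The median member had 3 and the highest 23. SIX6 was present in 169 members and SIX3 in 123, with 94 holding both, 75 SIX6 alone and 29 SIX3 alone. Summed over the members there were 583 SIX6 UMIs (193 CPM) and 313 SIX3 UMIs (104 CPM). In the 31 wild-type cells there were 46 SIX6 UMIs (144 CPM) and 56 SIX3 UMIs (175 CPM). SIX6 lies on chr14:60508951-60512850 and SIX3 on chr2:44941898-44946077, both on the plus strand (GRCh38, GENCODE 29).

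**Figure D1:**
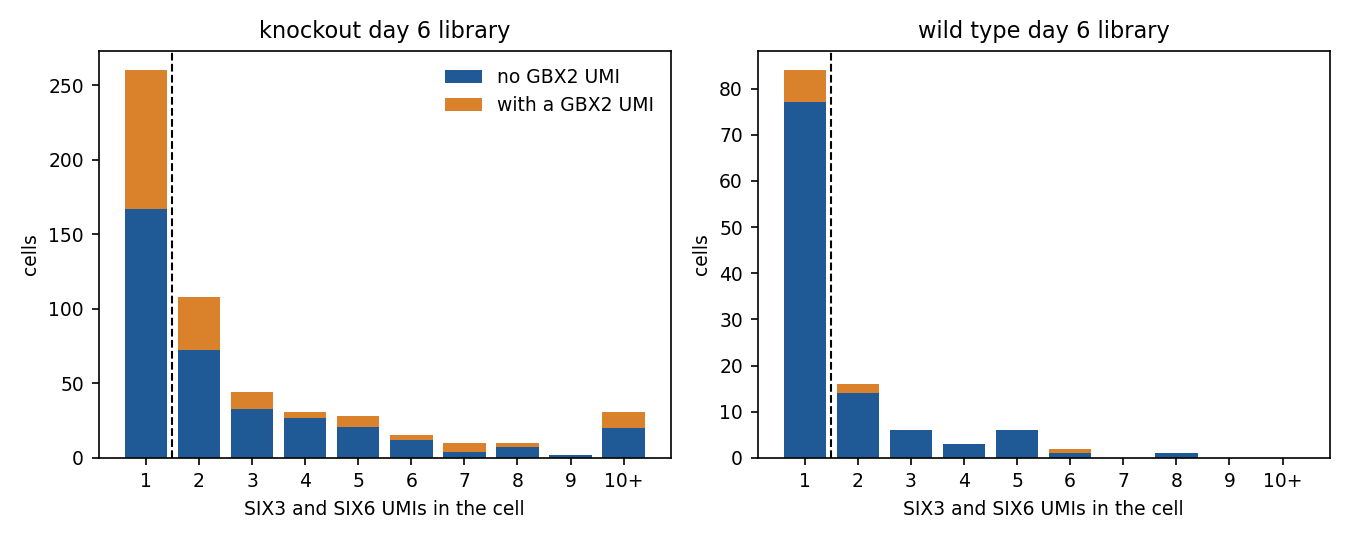
Number of cells by their summed UMIs of SIX3 and SIX6 in the knockout and wild-type libraries of day 6, with cells that do or do not hold a GBX2 UMI shown apart. The dashed line is the limit of the rule. Knockout cells without GBX2 number 167 with 1 UMI, 72 with 2 and 33 with 3, with no gap at that limit.

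Each member was compared with 1 cell of the same library that held no SIX3 or SIX6 UMI and came nearest in total UMIs, within 5%. All 198 members found a partner: the members summed to 3016543 UMIs and the matched cells to 3015881, and median depth was 14130 and 14131 UMIs. A gene was measured when it reached 5 CPM in either set. It was called higher or lower when the ratio of CPM was at least 1.5-fold and its interval excluded 1. Of 10798 measured genes, 483 (4.47%) were called higher in the members and 450 (4.17%) lower, and the median log2 ratio over all of them was -0.00. These shares are the background for the gene lists below, which were drawn up with earlier results of these data known.

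The eye field genes RAX, LHX2 and VAX1 were called higher in the members. Of the 9 genes in that list, these 3 were measured (median log2 ratio 2.72), and they reached 5 CPM only in the members, so a low gene could enter the list only by being high there. RAX, the homeobox gene that starts eye formation, had 18 UMIs in the members (5.97 CPM) and 1 in the matched cells (0.332 CPM), an 18.0-fold ratio whose interval ran from 2.84 to 750. LHX2, a LIM homeobox gene of the optic vesicle, had 35 UMIs against 6 (5.83-fold, 2.43 to 17.0), and VAX1, a homeobox gene of the ventral optic region, had 16 against 2 (8.0-fold, 1.88 to 71.7). PAX6, the paired-box gene of the eye field, had 13 UMIs against 0 and stayed under the 5 CPM limit. At least 1 UMI of the list was present in 21.2% of the members and 4.55% of the matched cells, so most members showed none of these genes and the median cell had 0 in both sets.

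In the broader list of 13 anterior neural plate and forebrain genes, 8 were measured, 6 were called higher and 1 lower (median log2 ratio 1.86). FEZF2, FEZF1 and LHX5 reached 5 CPM only in the members, so the count and median describe the list and support nothing. OTX2, which specifies forebrain and midbrain, had 186 UMIs in the members (61.7 CPM) and 26 in the matched cells (8.62 CPM), a 7.15-fold ratio (4.73 to 11.2). The zinc-finger gene FEZF2 had 36 UMIs against 0, which makes it at least 12-fold higher against a floor of 3 counts over the matched cells, and its relative FEZF1 had 16 against 3 (5.33-fold, 1.53 to 28.6). HESX1, a homeobox repressor of the anterior neural plate, had 62 against 22 (2.82-fold, 1.71 to 4.81), and LHX5, a LIM homeobox gene of the anterior brain, had 30 against 5 (6.00-fold, 2.30 to 19.8). POU3F1, a POU factor of early neural tissue, stood at 56.0 against 29.8 CPM (1.88-fold, 1.45 to 2.45). FOXD1 was the list's lower gene, with 6 UMIs against 29 (4.83-fold lower, 1.97 to 14.2). NKX2-1, of the hypothalamus, had 6 UMIs in the members and 0 in the matched cells. None of the 12 hypothalamus and ventral forebrain genes reached 5 CPM, and neither did any of 11 hindbrain genes. With eye field RNA found in a minority of the members and the hypothalamic genes near 0, the cells are called SIX3/SIX6 cells here and not anterior cells. Among cells without a POU5F1 UMI on both sides, an alternative chosen after seeing the data, all the called genes of these lists except POU3F1 kept their calls. After thinning to 4000 UMIs per cell, with members and comparison cells chosen anew, 0 of the 3 eye field calls and 3 of the 7 anterior calls were kept. VAX1 turned direction. In cells called G1, 1 of the 3 and 4 of the 7 were kept.

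**Figure D2:**
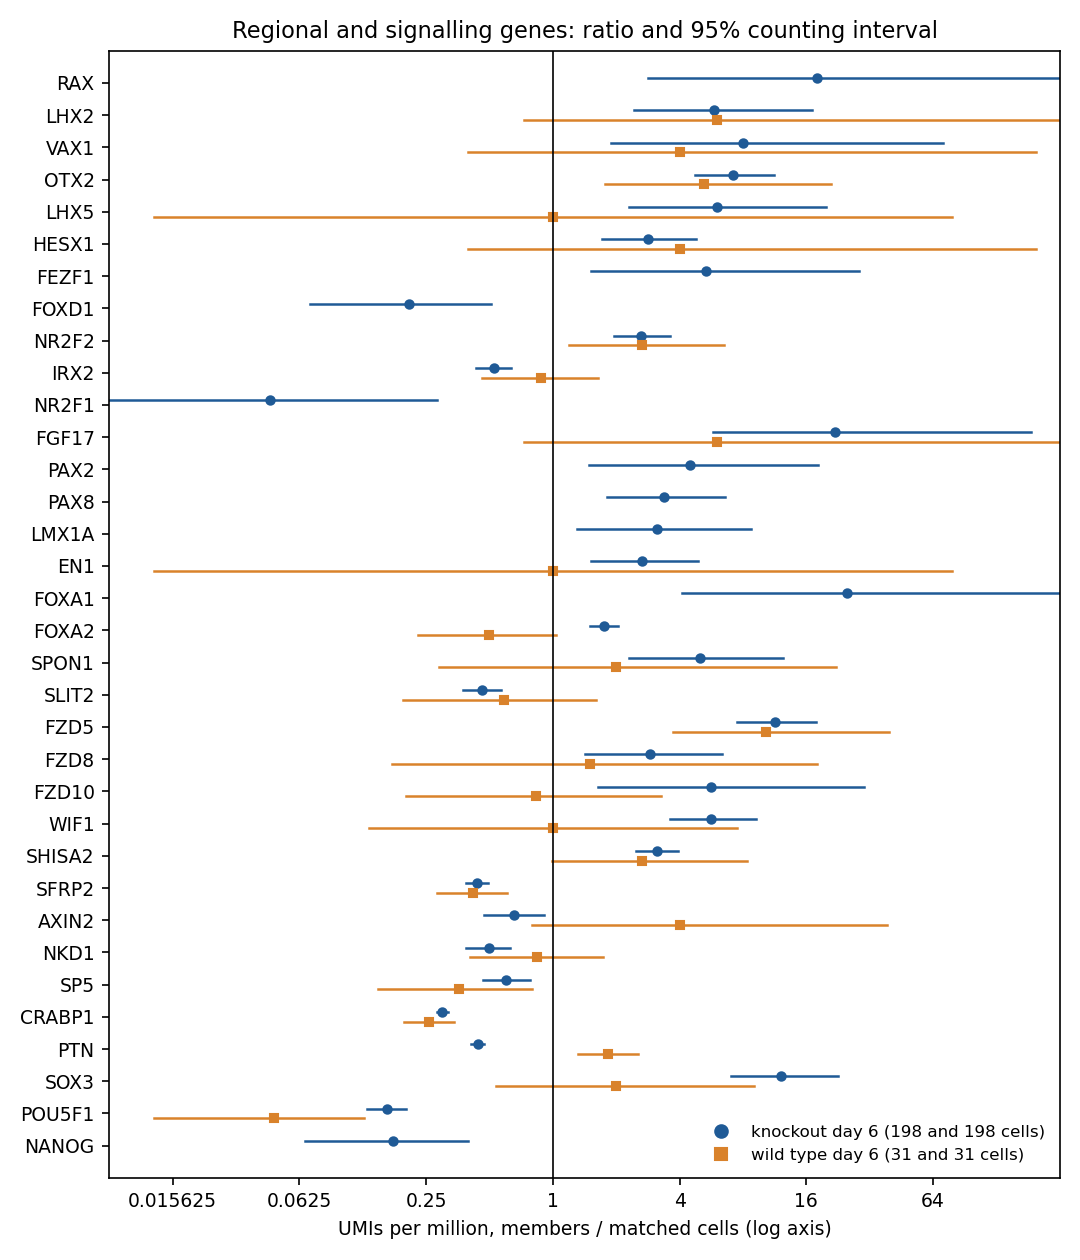
Ratio of CPM in the members to CPM in the depth-matched cells of the knockout day 6 library (log axis), with 95% counting intervals and the same ratio in the wild-type library beside it. Some interval lines run past the frame. A ratio with 0 UMIs on either side is not drawn. OTX2, FZD5 and SOX3 lie to the right in the knockout, with ratios of 7.15, 11.3 and 12.1, and POU5F1 and CRABP1 lie to the left in both libraries.

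Some midbrain genes were called higher too. Of 12 midbrain and isthmus genes, 6 were measured, 5 were called higher and 0 lower (median log2 ratio 1.65). All of the called genes except EN1 reached 5 CPM only in the members, so this count supports nothing. EN1, the engrailed homeobox gene, had 48 UMIs (15.9 CPM) against 18 (5.97 CPM), 2.67-fold (1.52 to 4.87). FGF17, a growth factor of the isthmus, had 44 against 2 (22.0-fold, 5.74 to 187), and PAX2 had 18 against 4 (4.50-fold, 1.48 to 18.3). PAX8 (47 against 14) and LMX1A (22 against 7), the latter a LIM homeobox gene of dopaminergic progenitors, were 3.36-fold and 3.14-fold higher. WNT1 had 0 UMIs in the members and 1 in the matched cells. At least 1 UMI of the list was present in 46.0% of the members and 18.2% of the matched cells. Among cells without a POU5F1 UMI, only FGF17 of these 5 genes kept its call, as in cells called G1. EN1 also lost its call when the comparison cells were limited to those without GBX2, with a ratio of 1.63.

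Among 9 floor plate genes, 6 were measured, with 3 called higher and 1 lower, and FOXA1 and SPON1 reached 5 CPM only in the members. FOXA2, the forkhead factor of the floor plate, had 465 UMIs (154 CPM) against 267 (88.5 CPM), 1.74-fold (1.49 to 2.03), and its relative FOXA1 had 25 against 1. SPON1, a secreted protein of the floor plate, had 40 against 8 (5.00-fold, 2.31 to 12.4), whereas SLIT2, an axon repellent, had 138 against 298 (2.16-fold lower, 1.76 to 2.66). SHH, the ligand made by the floor plate, had 1 UMI and 2. Of the 9 measured genes of the Hedgehog pathway 0 were called, with a median log2 ratio of 0.29. FOXA2 was not called among cells without a POU5F1 UMI, where its ratio was 1.2. In the list of 11 caudal forebrain genes, NR2F2 (158 UMIs against 60) was called higher, and IRX2 (174 against 332) and NR2F1 (1 against 22) lower.

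In the WNT pathway, the receptor gene FZD5 and the inhibitors WIF1 and SHISA2 were called higher and 3 target genes lower. WNT ligands bind Frizzled receptors and induce feedback genes such as AXIN2. Of 11 WNT target genes, 6 were measured, 0 were called higher and 3 lower (median log2 ratio -0.53): NKD1 (106 UMIs against 214, 2.02-fold lower), SP5 (100 against 166, 1.66-fold lower) and AXIN2 (65 against 99, 1.52-fold lower). Among 12 receptor genes, 8 were measured and 3 were called higher. FZD5, the Frizzled receptor of the eye field, had 283 UMIs (93.8 CPM) against 25 (8.29 CPM), 11.3-fold (7.51 to 17.8), FZD8 had 32 against 11 and FZD10 had 17 against 3, both at 5 CPM only in the members. Of 9 inhibitor genes, 7 were measured. The secreted WNT inhibitor WIF1 stood at 43.1 against 7.63 CPM (5.65-fold, 3.61 to 9.23), and SHISA2, which retains WNT and FGF receptors inside the cell, at 101 against 32.5 CPM (3.11-fold, 2.47 to 3.95). SFRP2, another secreted inhibitor, was lower at 134 against 308 CPM (2.29-fold, 2.04 to 2.58). SP5, FZD10 and SFRP2 were not called among cells without a POU5F1 UMI, and AXIN2 was not called with 10 comparison cells per member, also chosen after seeing the data.

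Genes of pluripotent cells were lower. Of 10 such genes 9 were measured, 0 were called higher and 6 lower (median log2 ratio -1.0). POU5F1, the central pluripotency factor, had 105 UMIs (34.8 CPM) in the members and 643 (213 CPM) in the matched cells, 6.13-fold lower (4.98 to 7.60), and NANOG had 7 against 40 (5.72-fold lower, 2.53 to 15.1). UTF1 and L1TD1 were 3.20-fold and 2.33-fold lower, and DPPA4 and DNMT3B 2.0-fold and 1.52-fold. A POU5F1 UMI was present in 24.2% of the members and 54.5% of the matched cells. The comparison cells therefore held more pluripotency RNA, and its part in the other differences was not tested. Among cells without a POU5F1 UMI, 60 of 92 called genes from the lists and rules stayed called. FGFR3, L1TD1, NANOG, NEFM and UTF1 turned direction there. That setting has fewer cells (150 members), and a cell without a POU5F1 UMI can still hold that RNA undetected.

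Neural progenitor genes were divided. SOX3, a neural SOX factor on the X chromosome, had 170 UMIs (56.4 CPM) against 14 (4.64 CPM), 12.1-fold (7.04 to 22.7), and SOX21 had 139 against 61. SOX2 stood at 550 and 442 CPM, 1.25-fold, and was not called. PTN, a secreted growth factor, was 2.27-fold lower (354 against 805 CPM) and FABP7, a fatty acid binding protein of radial glia, 1.56-fold lower. Of the 8 measured genes of the list 3 were called higher and 2 lower. SOX3 reached 5 CPM only in the members, so this count describes the list and supports nothing. In the Notch list 4 of 10 measured genes were called higher, with JAG1 (1.74-fold), HEY1, LFNG and NOTCH2, and 0 lower. JAG1 alone kept its call among cells without a POU5F1 UMI, and 0 of the 4 did in cells called G1. CRABP1, which binds retinoic acid in the cytoplasm, was 3.34-fold lower (405 against 1355 CPM), while DHRS3, which reduces retinal, was 4.00-fold higher. Neurons were scarcely marked, with TUBB3 (1.81-fold) and NEFM (1.67-fold) called among 4 measured neuron genes. The lists for neural crest, mesenchymal and mesendodermal cells, which the dish could also hold, had 5, 4 and 1 measured genes. TAGLN and COL1A2 were lower and ACTA2 was higher. GSC had 23 UMIs against 1, 26.1% of them in 1 cell, and reached 5 CPM only in the members. Of the 38 measured S phase genes 0 were called, and of 52 measured G2/M genes 2 were called higher and 0 lower (median log2 ratio 0.31).

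The members also held more RNA of several growth and signalling genes outside these lists. DLK1, a transmembrane Notch-family ligand from the imprinted region of chromosome 14, had 1650 UMIs (547 CPM) against 191 (63.3 CPM), 8.64-fold (7.43 to 10.1), and MEG3, the long noncoding RNA of the same region, had 127 against 7 (18.1-fold, 8.55 to 46.0). GPC3, a heparan sulphate proteoglycan, was 4.36-fold higher, SAT1, which acetylates polyamines, 3.43-fold, and TLE4, a Groucho-type corepressor, 3.29-fold (2.84 to 3.83). IGFBP3, CAPN6, C6orf141, SLITRK1 and LMO2 completed the 12 largest ratios among genes at 20 CPM or more, together with LHX5-AS1, WIF1, SOX3, FZD5, OTX2, DLK1 and MEG3. At the other end RARRES2 (5.97 against 48.1 CPM, 8.06-fold lower, 4.92 to 14.0) and the noncoding RNA LNCPRESS1 (8.0-fold lower) came first, followed by POU5F1, LMCD1, EPHA1, KLHL4, CNMD, NFE2L3, PODXL and TUBB2A.

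**Figure D3:**
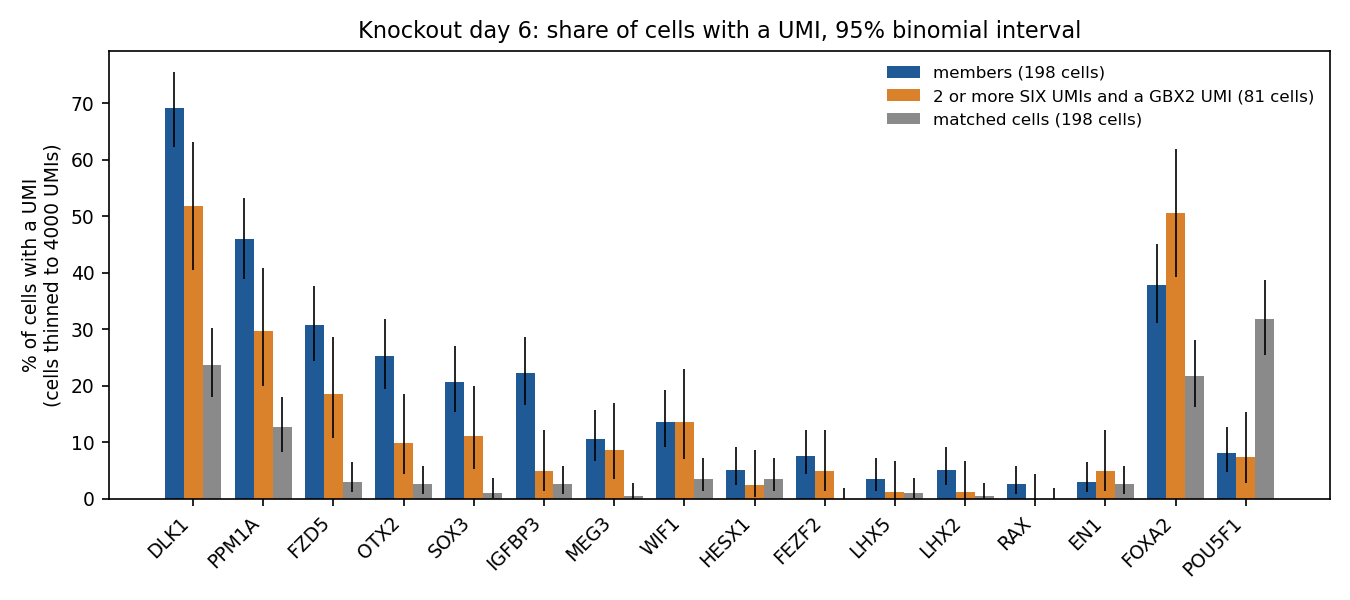
Share of cells (%) with at least 1 UMI of each gene after thinning to 4000 UMIs per cell, in the 198 members, the 81 cells with 2 or more SIX3/SIX6 UMIs and a GBX2 UMI, and the 198 matched cells, with exact binomial 95% intervals. DLK1 was detected in 69.2% of members and 23.7% of matched cells, and POU5F1 in 8.08% and 31.8%.

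In single cells, DLK1 had a UMI in 89.4% of members and 40.4% of matched cells. FZD5 had a UMI in 54.5% of members and 11.1% of matched cells, OTX2 in 47.0% and 9.60%, SOX3 in 41.4% and 6.57%, and FOXA2 in 61.1% and 47.5%. After thinning, FZD5 was in 30.8% and 3.03%, and OTX2 in 25.3% and 2.53%. Of 7 anterior genes (RAX, LHX2, OTX2, FZD5, FEZF2, LHX5 and HESX1), 47 members (23.7%) and 148 matched cells (74.7%) showed none. Exactly 3 were present in 28 members and 4 matched cells, and 4, 5 or 6 of them in 15, 4 and 1 members and in 0 matched cells. All 7 had been called higher in these same cells, and RAX, LHX2, FEZF2 and LHX5 reached 5 CPM only in the members. This contrast was therefore set by how the genes were picked and supports nothing. At least 1 UMI of the 13 anterior neural plate and forebrain genes was present in 88.4% of members and 84.3% of matched cells. The median cell held 3 and 2 of these UMIs. Members with SIX3 held FZD5 in 64.2% of cells and members without it in 38.7%.

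The 5 genes most like the SIX3 and SIX6 sum across the 4419 cells of the library, by Pearson's r of log-scaled counts, were DLK1 (0.456), FZD5 (0.399), GPC3 (0.391), SOX3 (0.341) and PPM1A (0.334). All cells of this comparison share 1 library and depth varies between them, so these values describe it only. SIX3 and SIX6 themselves had an r of 0.424.

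The level of several genes went with the number of SIX3 and SIX6 UMIs in a cell, a description since the bins use the counts that chose the members. DLK1 stood at 63.3 CPM in the matched cells, 185 CPM in cells with 1 SIX3/SIX6 UMI and 401, 586, 523 and 674 CPM in members with 2, 3, 4 and 5 or more. SOX3 stood at 4.64, 19.4, 22.3, 36.1, 58.1 and 96.7 CPM in the same order, so that it was highest in the cells richest in SIX3/SIX6 RNA, and FZD5 at 8.29, 41.8, 62.9, 62.2, 114 and 130.2 CPM. POU5F1 stood at 213, 80.7, 51.3, 24.1, 23.8 and 28.0 CPM, and CRABP1 at 1355, 678, 401, 480, 510 and 339.9 CPM. Cells with 1 UMI thus lay between the matched cells and the members with 2 for each of these 5 genes. At a free RNA share of 10%, free RNA alone would put at least 1 SIX3 or SIX6 UMI into 122.7 cells of this library. Exactly 1 was found in 260 cells, counted with or without a GBX2 UMI. Which of the cells with 1 UMI held it from free RNA, and what part this has in their middle levels, was not tested. Median depth was 12620 UMIs in cells with 1 SIX3/SIX6 UMI, 13037.5, 13661 and 12341 in members with 2, 3 and 4, and highest, 15910.5, in those with 5 or more.

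**Figure D4:**
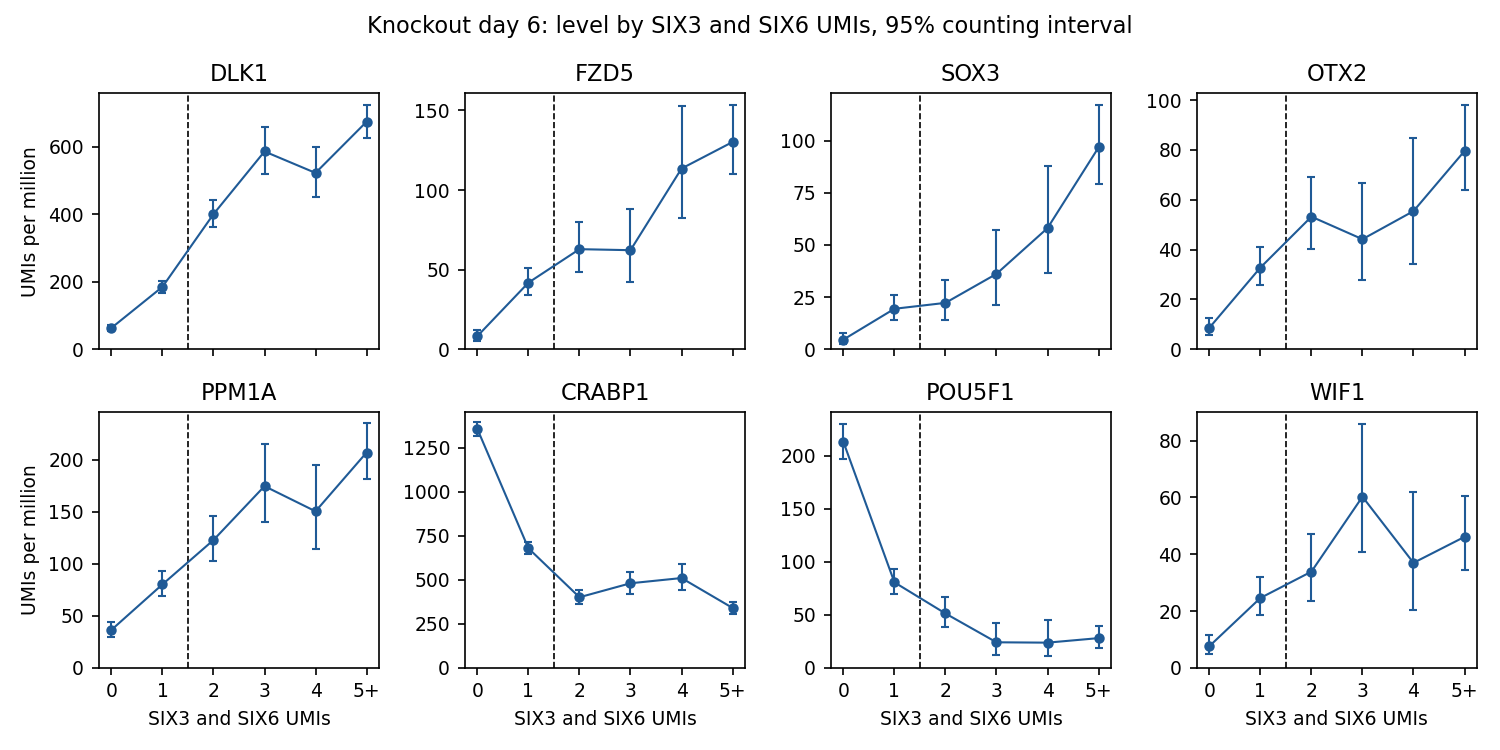
CPM of named genes in matched cells and in cells with 1, 2, 3, 4 and 5 or more SIX3 and SIX6 UMIs in the knockout day 6 library, with 95% counting intervals. SOX3 goes from 4.64 to 96.7 CPM and POU5F1 from 213 to 28.0 CPM across these bins.

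Members with SIX3 alone and with SIX6 alone differed. In the 29 cells with SIX3 alone (median depth 17224 UMIs), against the 75 with SIX6 alone (13287 UMIs), 438 of 11067 measured genes (3.96%) were called higher and 209 (1.89%) lower, 5.85% in all. OTX2 stood at 98.5 CPM in SIX3-alone cells and 41.8 CPM in SIX6-alone cells (2.36-fold, 1.54 to 3.62). POU5F1 was 4.61-fold higher in SIX3-alone cells (98.5 against 21.4 CPM, 2.74 to 7.98), and so was MIR302CHG, the host gene of a microRNA cluster of pluripotent cells (182 against 21.4 CPM). MT1E, a metallothionein, stood at 948 against 113 CPM. IGFBP3 (17.4 against 93.3 CPM), SOX3 (19.3 against 45.7 CPM) and PTN (162 against 429 CPM) were lower in SIX3-alone cells. The median chromosome 20 share of UMIs was 3.21% in SIX3-alone cells and 2.44% in SIX6-alone cells, with 69.0% and 20% of cells at 3% or more, and its part in these differences was not tested. LHX2 had 0 UMIs in SIX3-alone cells and stood at 7.81 CPM in SIX6-alone cells. In all members, an LHX2 UMI was present in 11.2% of cells with SIX6 and 0% of the 29 without it.

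GBX2, which the rule excluded, was found in other cells with SIX3 or SIX6, and its values are given as a description. At least 2 SIX3/SIX6 UMIs together with a GBX2 UMI were found in 81 knockout cells, with a median depth of 20012 UMIs. In 277 cells with at least 2 SIX3/SIX6 UMIs and their depth-matched partners with 0, GBX2 was present in 28.5% (23.3 to 34.2) and 34.7% (29.1 to 40.6). After thinning to 4000 UMIs it was present in 7.94% (5.04 to 11.8) and 11.6% (8.04 to 15.9). Of 10967 genes measured, 323 (2.95%) were called higher in the 81 cells than in the members and 175 (1.6%) lower. OTX2 stood at 39.9 CPM in the 81 cells and 61.7 CPM in the members, FZD5 at 58.9 and 93.8 CPM, and LHX2, FGF17 and IGFBP3 were lower as well. Of the 81 cells, 51.9% had a chromosome 20 share of 3% or more and 9.88% were among the highest doublet scores. CDH6, an adhesion gene, was 6.07-fold higher. The WNT target NKD1 was 1.65-fold and the WNT inhibitor DKK1 1.59-fold higher in the cells with GBX2.

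In the wild-type day 6 library the 31 cells were compared with 31 matched cells in the same way (medians 10235 and 10230 UMIs). Of 11339 measured genes, 340 (3%) were called higher and 302 (2.66%) lower, 5.66% in either direction. Of 52 genes of the G2 and M phases, 28 were called higher (median log2 ratio 1.02), and 67.7% of the 31 cells and 51.6% of their matched cells were called G2/M. What part the cell cycle has in the wild-type values was not tested. DLK1 had 266 UMIs against 10 (26.6-fold, 14.2 to 56.1), FZD5 41 against 4 (10.2-fold, 3.71 to 39.4), OTX2 21 against 4 (5.25-fold, 1.77 to 21.0) and TLE4 83 against 11 (7.54-fold, 4.01 to 15.7). POU5F1 had 4 UMIs against 84 and NANOG 0 against 14. CRABP1 (69 against 267) and SFRP2 were lower in both libraries. The 2 libraries shared 59 genes called higher, 12.2% of the knockout calls and 17.4% of the wild-type calls, and 64 called lower (14.2% and 21.2%). A further 4 genes were called higher in the knockout and lower in the wild type, and 4 the other way, among them LGALS1 (2.31-fold and 0.377-fold) and MT2A (0.586-fold and 4.23-fold). FOXA2 had 12 UMIs against 24 (0.50-fold, 0.228 to 1.04), EN1 1 against 1, WIF1 3 against 3 and SOX3 8 against 4, none of them called. In the 31 wild-type cells PTN was 1.82-fold higher (111 UMIs against 61, 1.32 to 2.53), and in the knockout members it was lower. RAX had 2 UMIs against 0, LHX2 6 against 1 and PAX6 4 against 0, too few to compare.

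Between the genotypes, knockout members were set beside wild-type members, and the same ratio was taken between the matched cells. In the members, 490 of 11179 genes (4.38%) were called higher in the knockout and 430 (3.85%) lower, 8.23% in either direction. In the matched cells, 572 of 11158 (5.13%) were called higher and 478 (4.28%) lower, 9.41% in all. These ratios compare single libraries, not genotypes. FOXA2 stood at 154 CPM in knockout members and 37.6 CPM in wild-type members (4.10-fold, 2.33 to 8.0), PTCH1, a Hedgehog receptor and target gene, at 188 and 72.0 CPM (2.61-fold), and SOX3 at 56.4 and 25.1 CPM (2.25-fold). COL1A1, ID1 and CDKN1A were lower in knockout members. In the matched cells, which hold no SIX3 or SIX6 UMI, PTCH1 (2.56-fold higher), ID1, CDKN1A and COL1A1 (lower) had the same directions. SIRT1 stood at 9.28 CPM in knockout matched cells and 28.2 CPM in wild-type matched cells.

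Genes near SIX6 on the chromosome were also called. Within 1500 kb of SIX6, 14 genes were measured, with 6 called higher and 0 lower. Within the same distance of SIX3, 10 were measured, with 3 called higher and 0 lower. Next to SIX6, AL049874.3 had 48 UMIs against 4 (12-fold, 4.39 to 45.8) at 6.20 kb (measured between the lower-coordinate ends of the 2 genes). PPM1A, a protein phosphatase, had 500 against 110 (4.54-fold, 3.69 to 5.64) at -263 kb, and DHRS7 was 2.25-fold higher at -365 kb. SIX4, at 15.9 and 10.3 CPM (1.55-fold, 0.965 to 2.52), was not called at 201 kb. Neither were MNAT1 at 226 kb and HIF1A at 1187 kb. Next to SIX3, SIX3-AS1 had 21 UMIs against 1 at -1.70 kb, LINC01833 35 against 0 (at least 11.7-fold higher) at -20.8 kb and AC012354.1 26 against 2 at 12.8 kb. SIX3-AS1 is transcribed from the opposite strand. Its annotated span (chr2:44940154-44941873) ends before that of SIX3 (chr2:44941898-44946077) begins, so the spans do not overlap. No source used here gives the strand setting of the counting, and whether reads of one gene were counted for the other was not tested. PPM1A was 3.50-fold higher (28 UMIs against 8, 1.55 to 8.88) in the wild-type cells as well.

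**Figure D5:**
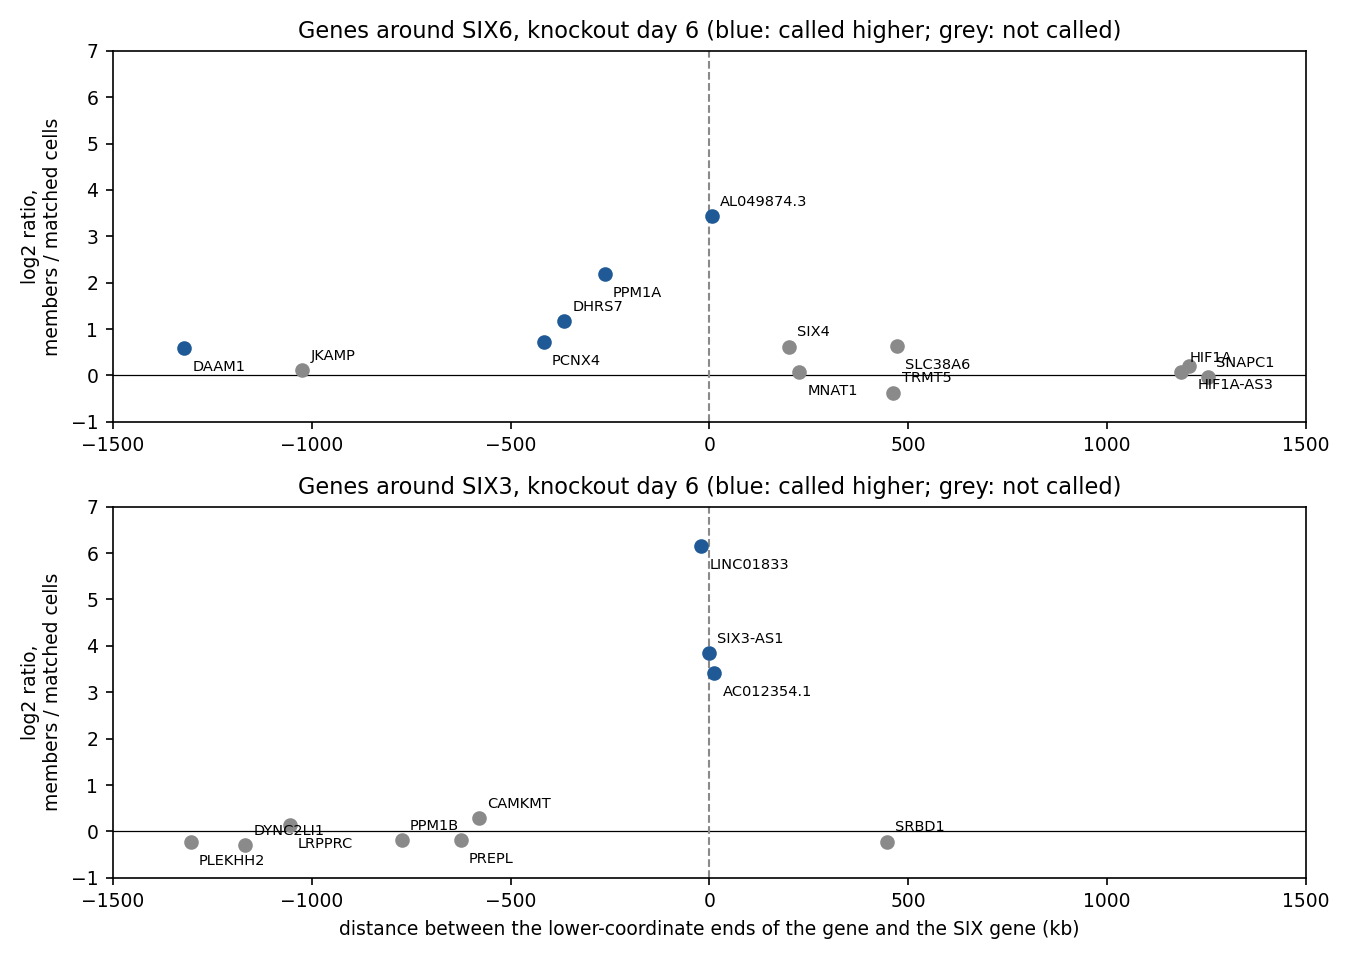
Log2 ratio of members to matched cells in the knockout day 6 library for measured genes within 1500 kb of SIX6 and of SIX3, against distance (kb) between the lower-coordinate ends, with genes called higher marked. Not every measured gene is drawn: 6 of 14 were called near SIX6 and 3 of 10 near SIX3.

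The regulatory sequence just before the start of 3 of the genes that moved together is shown from RefSeq (GRCh38.p14), in lower case with motif matches in capitals. SIX6 is the gene that chose most members, PPM1A its called neighbour, and HESX1 the gene among those found with a promoter that held the motif TAATTA. For HESX1 and PPM1A the promoter with a motif match is the one shown. Promoters were found for 11 of 16 genes looked up (not for SIX3, FEZF2, LHX5 or DLK1, among others). Motifs searched on both strands were TAATTA (a core bound by many homeodomains), TAATCC (the core bound by OTX2-type homeodomains) and TGATAC (a core bound by SIX-type homeodomains). They were searched in the 250 bases before each start, and the part of these that lies outside annotated exons is printed.
SIX6, chr14:60508896-60508950, plus strand: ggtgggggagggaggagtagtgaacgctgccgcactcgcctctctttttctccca
HESX1, chr3:57200029-57200228, minus strand: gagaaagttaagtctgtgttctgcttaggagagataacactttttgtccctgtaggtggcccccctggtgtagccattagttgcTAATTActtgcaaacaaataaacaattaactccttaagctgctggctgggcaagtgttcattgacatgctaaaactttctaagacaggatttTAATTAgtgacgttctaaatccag
PPM1A, chr14:60245500-60245749, plus strand: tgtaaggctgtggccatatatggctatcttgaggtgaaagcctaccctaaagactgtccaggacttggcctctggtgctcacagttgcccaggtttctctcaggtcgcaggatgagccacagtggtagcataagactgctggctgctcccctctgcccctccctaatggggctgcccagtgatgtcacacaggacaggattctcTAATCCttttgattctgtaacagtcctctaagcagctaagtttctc
The HESX1 window holds TAATTA at -166 and -74 from the start and the PPM1A window TAATCC at -46. Another HESX1 promoter (chr3:57227616-57227865) and another PPM1A promoter (chr14:60248971-60249220) held none of these motifs and are not printed. Over the 15 promoters of these genes, TAATTA was in 1, TAATCC in 1 and TGATAC in 0. In all 35116 promoters of the table, TAATTA was in 4.35%, TAATCC in 5.62% and TGATAC in 3.80%. A match is a description of the letters and no evidence of binding.

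Other measures, which the rule does not use, also differed between members and matched cells. By phase call, 105 members (53%, 45.8 to 60.1) and 75 matched cells (37.9%, 31.1 to 45) were in G2/M, and 43 and 69 in S phase. The median share of UMIs from chromosome 20 was 2.81% in members and 2.40% in matched cells, and 72 members (36.4%) and 44 matched cells (22.2%) were at 3% or more. In the wild-type library, 22 of the 31 cells and 26 of their matched cells were at 3% or more. The median mitochondrial share was 1.42% and 1.54%. Among the cells with the highest doublet scores were 9 members (4.55%) and 4 matched cells (2.02%). Of 93 called genes, 90 stayed called with doublet-scored cells left out, 61 at a chromosome 20 share of 3% or more and 70 below 2.6%, and in cells called G1 46 of 91 stayed called. What part these measures have in the differences was not tested further. DLK1, FZD5, OTX2, SOX3, TLE4, WIF1, CRABP1 and NKD1 were called under each of 17 alternatives, whereas HESX1 was called under 15, LHX2 under 14, RAX and FOXA2 under 13 and EN1 under 11. Among these alternatives, a minimum of 1 UMI for a measured gene could lose no call, and subtracting free RNA from both sets could hardly lose one. VAX1, EN1, FZD10, SOX21, HEY1, LFNG, NEFM and DHRS3 turned direction after thinning, and EN1 and SOX21 also in G1 cells. Thinning leaves few counts, and members and comparison cells were chosen anew on the thinned counts. The comparison cells were then not matched on their depth before thinning, and could hold SIX3 or SIX6 UMIs lost in it. HEY1 turned at a chromosome 20 share of 3% or more and NR2F1 below 2.6%.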

How the data were processed

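The authors deposited gene-by-barcode matrices of UMI counts for 4 libraries, with every barcode kept (1556315 to 1881372 per library) and no cell filter, made per the labels with a 10x Chromium 3′ kit. The submitters' processing notes name Cell Ranger 6.1.2 and GRCh38, and the matrix header gives Cell Ranger 4. The annotation version and strand setting are not given in the sources used here. In the cells used, the wild type had 73424397 UMIs on day 0 and 51424092 on day 6, and the knockout 73451883 and 65336710.

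Counts were filtered and summed with Python 3.11.15, numpy 2.4.6 and scipy 1.17.1, phases were called with scanpy 1.11.5, and normalisation factors for an alternative came from edgeR 4.0.16. Members were matched from the deepest down, 1 to 1. Ratios of CPM have exact conditional binomial intervals, shares exact Clopper-Pearson intervals, and the log2 ratio uses a prior count of 0.5. The code was checked on simulated data. The automatic doublet threshold of Scrublet did not work (0 to 6 cells), so cells with the highest scores were left out in an alternative. Gene positions come from GENCODE 29.

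Named genes were the 12 highest and 12 lowest called ratios at 20 CPM or more, up to 5 called members of each of 32 lists, and a fixed set of regional genes. A few others were named after their values were seen: SAT1, genes called in opposite directions in the libraries, and the genes near SIX3 and SIX6. The members, lists and rules were chosen with earlier results of these data known. Some genes that these rules pick are not reported here.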

Additional observations from a re-analysis of the deposited data

Results flagged for a closer look

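PTN was set apart because its ratio of members to matched cells lay below 1 in the knockout library of day 6 (0.440, 0.409 to 0.473) and above 1 in the wild-type library (1.82, 1.32 to 2.53). A further 7 genes were called in opposite directions. Their knockout ratios were 0.491 for AKAP1, 0.594 for LIMA1, 0.586 for MT2A, 2.31 for LGALS1, 1.63 for PIGBOS1, 1.71 for PPIP5K2 and 2.08 for PTPN21. In the wild type AKAP1 had 7 UMIs against 0, LIMA1 9 against 1, PIGBOS1 1 against 9, PPIP5K2 1 against 8 and PTPN21 0 against 6, while MT2A had 347 against 82 and LGALS1 20 against 53. None of these differences between the libraries was tested, since each group has 1 library. In the day 0 libraries, which the comparisons do not use, 15 knockout cells and 22 wild-type cells met the same rule, above the limit that a count of 0 allows. In those 15 cells DLK1 stood at 568 CPM and POU5F1 at 645 CPM, and in the 22 cells at 509 and 381 CPM.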

How the results depend on the processing

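No paired analysis was possible because each group has 1 library and the labels carry no replicate numbers. Of 93 called genes from the lists and rules, 93 stayed called after TMM scaling, without ribosomal and mitochondrial genes, and after subtracting free RNA. The scalings change only the totals of the sets. Free RNA was subtracted in nearly equal amounts from both sets, which moves ratios away from 1. Calls then numbered 606 higher and 570 lower in the knockout, so that setting could hardly lose a call. All 93 also stayed called at a minimum of 1 UMI, where cells and ratios are unchanged and no call could be lost. With at least 3 SIX3/SIX6 UMIs 89 stayed called, and after thinning 39 of 89. Member numbers (198 and 31) were 126 and 17 with at least 3 SIX3/SIX6 UMIs, 365 and 108 with at least 1, 79 and 15 after thinning, 50 and 7 in G1, 90 and 2 below 2.6% chromosome 20 share, 72 in the knockout at 3% or more, and 20 in the wild type at 8000 UMIs. Knockout calls were 297 higher and 188 lower after thinning, 229 and 226 at 20 CPM, and 253 higher in G1. Wild-type calls were 770 higher unmatched, 673 with 10 comparison cells, 196 without POU5F1 and, as higher and lower, 103 and 102 after thinning, 94 and 93 in G1, and 26 and 28 below 2.6% chromosome 20 share. These settings use fewer or other cells or genes, and other causes were not tested. As log2 ratios, directions turned after thinning for DHRS3 (-0.65), EN1 (-0.49), FZD10 (-2.32), HEY1 (-0.49), LFNG (-0.24), NEFM (-0.23), SOX21 (-0.14), VAX1 (-1.58) and EGR1 (0.13), in G1 for CENPF (-0.061), EN1 (-1.14), EPHB2 (-0.90), GAS2L3 (-0.53) and SOX21 (-0.065), and without POU5F1 for FGFR3 (0.25), L1TD1 (0.10), NANOG (0.29), NEFM (-0.31) and UTF1 (1.58). EGR1 also turned unmatched (0.11), below 2.6% chromosome 20 share (0.085) and with 10 comparison cells (0.036), NR2F1 below 2.6% (1.58), and HEY1 (-0.31) and MSI1 (-0.001) at 3% or more.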

Other observations

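The share of genes called higher varied between chromosomes, a tally made after the values were seen and not tested against counting error. Genes called higher in the knockout members were 27 of 377 measured on chromosome 14 (7.16%), 11 of 159 on chromosome 18 (6.92%), 27 of 401 on chromosome X (6.73%) and 20 of 304 on chromosome 20 (6.58%), against 4.47% over all chromosomes. The other chromosomes lay between 1.94% and 6.39% (chromosome 10). The chromosome 14 genes include DLK1, MEG3 and PPM1A, named above. A chromosome 20 share of UMIs of 3% or more was found in 36.4% of members and 22.2% of matched cells. Its part in the chromosome 20 calls was not tested.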
